A study of Mus musculus with 2 samples.

Results

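The orphan and lipid-sensing nuclear receptors were followed in the uterus at gestation day 2.5, before implantation, with VEGF expression kept or repressed. The members were the genes of the deposited table whose symbols follow the naming of the RAR, RXR, PPAR, ROR, estrogen-related, thyroid hormone and vitamin D receptors or of the numbered NR genes, without Nr2f2, Nr3c1 and Nr3c2. They came to 29 of the 14678 genes in the table. A further 11 symbols of the mouse annotation that fit the naming, Rora, Esrrg, Nr4a3, Nr5a1 and Nr5a2 among them, were not analysed here.

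Both groups were double transgenic females, VEGFtetO/tetO/beta-AKtg/wt, so that the tet operators in both VEGF alleles and the tetR-Krab repressor, which a beta-actin promoter drives in all tissues, were also present in the controls. The Dox+ females ate doxycycline chow, which releases the repressor from the VEGF promoter, and the Dox- females had it until a few weeks of age and then chow without it. They were young adult littermates mated with VEGFtetO/tetO males. Exposure to doxycycline and VEGF repression cannot be told apart in this design, since only the Dox+ females still had the drug as adults. RNA of 3 uteri was pooled for each condition and 1 library was sequenced from each pool by digital gene expression (DGE) profiling, which counts short tags and assigns them to genes, so that the number of a gene's tags, its copies, measures its mRNA.

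The library of Dox+ held 5985925 clean tags and that of Dox- 5844314, of which 4437506 and 4218459 were assigned to genes. With 1 library per condition no difference in these counts can be checked against a replicate library. The paper followed some differences by qPCR, and the genes it names for this include none of these receptors. All intervals and tests cover counting error alone and compare these libraries, not the conditions. For VEGF itself, the paper reported lower mRNA by qPCR and lower protein by Western blot in Dox- uteri, each with replicates. Vegfa, the repressed gene, had 247 copies in Dox+ and 125 in Dox-, 1.93-fold lower (95% interval 1.55 to 2.41). The markers of the uterus were present: all 10 listed epithelial, 9 stromal and 8 smooth muscle genes had tags in both libraries. In bulk tissue, fewer cells of a type and less RNA per cell cannot be told apart.

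Nuclear receptors are transcription factors that bind DNA through zinc fingers and, in many members, a small lipophilic ligand through a separate domain. Retinoid, thyroid hormone, vitamin D, oxysterol and fatty acid receptors bind as heterodimers with an RXR, mostly at direct repeats of a short hexamer, and exchange corepressors for coactivators when the ligand is bound. The receptors called orphans lack a known natural ligand or were named before one was found. In the uterus, retinoid signaling and PPARD have been studied around implantation, and NR2F2, a relative of 2 members here, acts in the stroma downstream of Indian hedgehog.

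Most of these receptors were present at low levels. Of the 29 genes, 10 had 100 copies or more in Dox+ (34.5%) and 10 in Dox- (34.5%), while 44.3% and 44.0% of all genes in the table reached that level. The median member had 49 copies in Dox+ and 42 in Dox-. Together they held 4263 tags in Dox+ and 4409 in Dox-, 0.0961% and 0.105% of the counted tags. The summed level was 712 and 754 TPM (a gene's copies scaled by the clean tags of its library), a ratio of 1.06 (1.02 to 1.11). This rise came from Nr2f6 (1157 and 1528 copies), which gained more copies than the whole sum did. The other members together had fewer copies in Dox- than in Dox+.

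**Figure D1:**
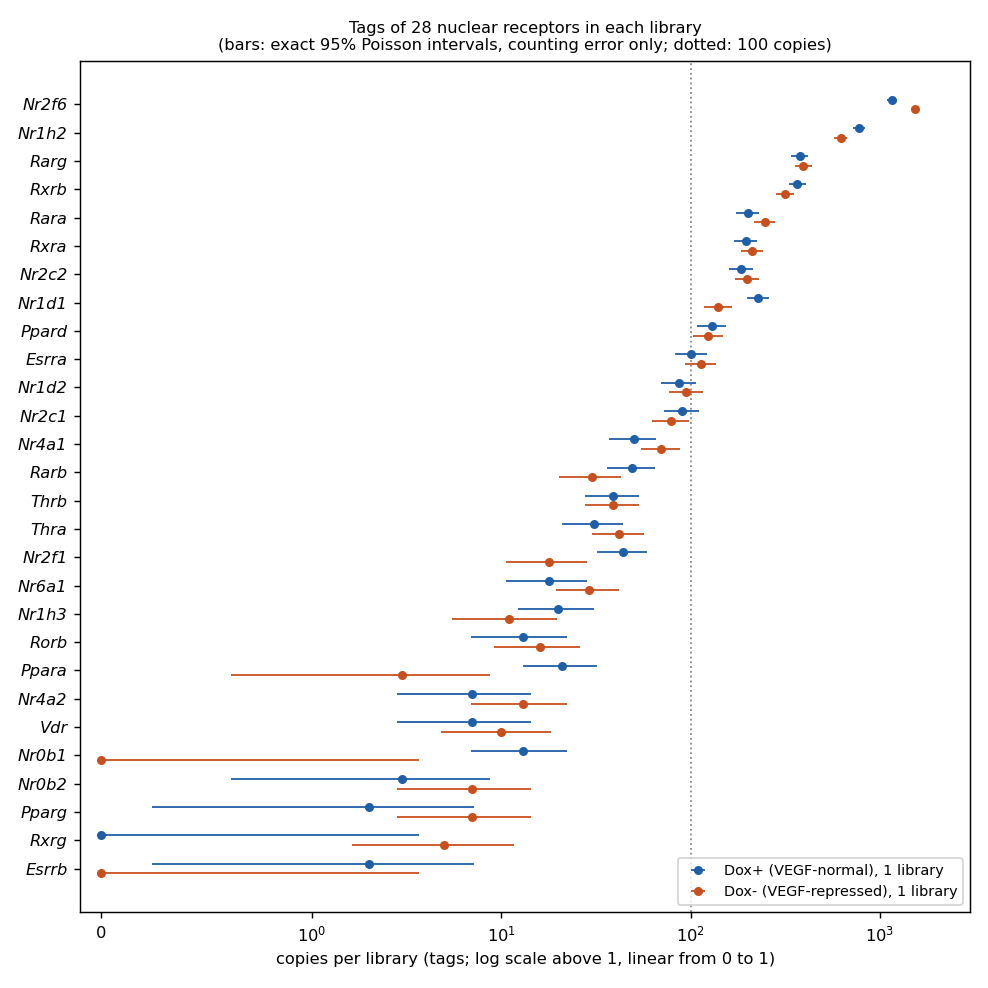
Copies of 28 receptors in the Dox+ and Dox- libraries, ordered by combined copies, on an axis that is logarithmic above 1, with exact 95% Poisson intervals. Nr2f6 (1157 and 1528 copies) and Nr1h2 (775 and 620) stand to the right of all others, and the lower members reach down to 0 copies in Nr0b1, Rxrg and Esrrb.

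A receptor was compared further where its combined copies reached 200, which was met by 10 of the 29. It was called where the libraries differed 1.5-fold or more with a false discovery rate (FDR) below 0.05 in the test of Audic and Claverie, adjusted over the whole table. By this rule 29.9% of all genes with enough copies were called, 15.2% as higher in Dox- and 14.7% as lower. Of the 10 receptors, 0 were called higher and 1, Nr1d1, was called lower. The 10 log2 ratios, Dox- over Dox+, ran from -0.66 to 0.44 with a median of 0.12, beside a median of 0.035 over the 6547 genes compared. Of the 10 receptors, 9 lay within a fold change of 1.5, as did 70.1% of all genes with enough copies. The 95% interval of the ratio left out 1 for 4 of the 10 receptors, Nr2f6, Nr1h2, Rara and Nr1d1, and for 66.2% of all genes with enough copies. The 19 receptors with fewer copies were outside the comparison, so that the count of calls does not speak for them. None of them exceeded 16.3 TPM in either library.

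**Figure D2:**
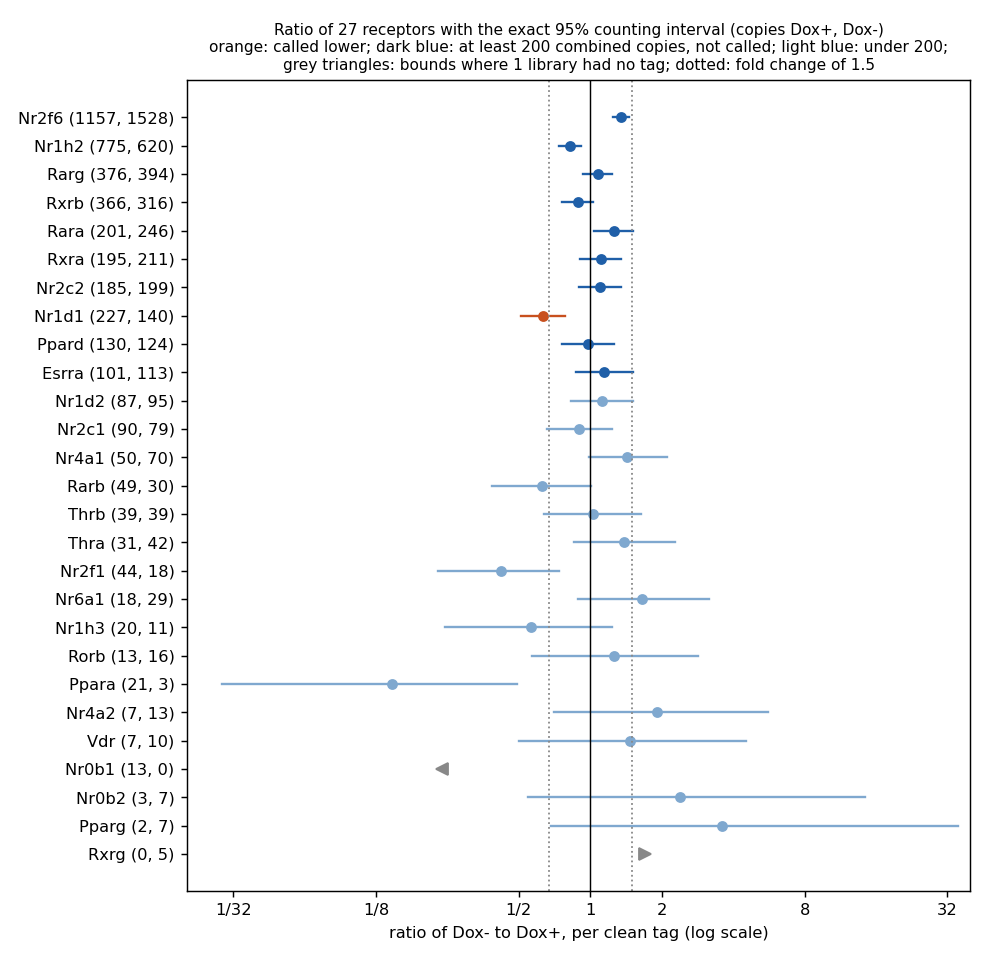
Ratio of Dox- to Dox+ for 27 receptors, on a log axis, with the exact 95% counting interval and the copies of both libraries. Nr1d1 is the one called point, the 9 other receptors with at least 200 combined copies lie between the dotted lines at a fold change of 1.5, and the intervals widen toward the bottom as copies fall.

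The RXR genes, the common partners of the ligand-activated heterodimers, had nearly equal sums in both libraries. Rxra had 195 copies in Dox+ and 211 in Dox- (32.6 and 36.1 TPM), a ratio of 1.11 (0.908 to 1.35). Rxrb had 366 and 316 copies (61.1 and 54.1 TPM), a ratio of 0.884 (0.758 to 1.03). Rxrg had no tag in Dox+ and 5 copies in Dox-, at least 1.71-fold higher when 3 copies are taken as the floor of a library without a tag. The 3 RXR genes summed to 561 and 532 copies, a ratio of 0.971 with an interval from 0.861 to 1.10, so that the sums did not differ beyond counting error.

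The retinoic acid receptors were also close in sum, with 626 and 670 copies, a ratio of 1.10 (0.982 to 1.22). Rarg, the one with the most tags, had 376 and 394 copies (62.8 and 67.4 TPM), a ratio of 1.07 (0.929 to 1.24). Rara had 201 and 246 copies (33.6 and 42.1 TPM), a ratio of 1.25 whose interval, 1.04 to 1.52, left out 1 without reaching the fold change of 1.5. Rarb had fewer copies, 49 and 30, and its ratio of 0.627 had an interval from 0.384 to 1.01. Within the class, Rarb made up 7.83% of the tags in Dox+ (5.85% to 10.2%) and 4.48% in Dox- (3.04% to 6.33%), and these intervals overlap.

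Rarb is itself a textbook target of its own family, through a retinoic acid response element in its promoter. The RefSeq promoter window of Rarb is shown because this element can be read in it, and it was chosen after its sequence was seen. The 250 bases before the start site lie on NCBIM37 (mm9) at chr14:17407991-17408240, minus strand, inside the Rarb gene. Capitals mark the hexamers searched on both strands, AGGTCA or GGGTCA, and likewise AGTTCA or GGTTCA, and none of the matches in this window overlap.
Rarb: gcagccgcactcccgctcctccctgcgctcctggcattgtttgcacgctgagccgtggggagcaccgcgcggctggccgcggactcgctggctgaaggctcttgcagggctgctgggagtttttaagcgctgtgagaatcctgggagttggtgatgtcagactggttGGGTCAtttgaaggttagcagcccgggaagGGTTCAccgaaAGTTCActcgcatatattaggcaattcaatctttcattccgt
The last 2 of its 3 hexamers form a direct repeat with a spacer of 5 bases, 53 to 37 bases before the start site. Among the 42 windows that RefSeq gives for 27 of the 29 receptors, Rarb's was the only one with such a repeat, and 0.0883% of all 32851 promoter windows hold one. No member window held a repeat with a spacer of 1, 2 or 4 bases in these letters, and 0.164%, 0.174% and 0.067% of all windows did. At least 1 of the 4 hexamers stood in 20 of the 42 member windows, or 47.6%, and in 38.6% of all windows.

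The windows of listed target and retinoid supply genes were searched as well, and Cyp26a1 is shown because it held a match. With spacers of 2 (RAR targets), 4 (LXR and thyroid receptor targets) and 1 (PPAR targets), 0 windows matched. With a spacer of 5, 2 of 11 RAR target windows held the repeat, those of Rarb and Cyp26a1. So did 1 of 21 windows of retinoid supply genes, again that of Cyp26a1. Cyp26a1 encodes an enzyme that clears retinoic acid and is likewise a known target. The 2 elements are given with the hexamers in capitals and the spacer in lower case, Cyp26a1 reading on the opposite strand, 32 to 16 bases before its start.
Rarb: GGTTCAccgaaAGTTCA
Cyp26a1: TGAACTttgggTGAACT
Cyp26a1 had 32 copies in Dox+ and 25 in Dox-, a ratio of 0.800 (0.455 to 1.39). Neither of these genes with the repeat was called, and neither had the 200 combined copies the rule asks for.

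The REV-ERB receptors, Nr1d1 and Nr1d2, are heme-binding repressors of the circadian clock that compete with the ROR activators for the same DNA elements. Nr1d1 (Gene ID 217166, chromosome 11, 98629246 to 98636647, minus strand, NCBIM37) fell from 227 copies in Dox+ to 140 in Dox-, or from 37.9 to 24.0 TPM. It was 1.58-fold lower, with an interval from 1.28 to 1.97 and an FDR of 7.6e-05 in the Audic-Claverie test. Nr1d2 (chromosome 14, 19036568 to 19071641, minus strand) had 87 and 95 copies, a ratio of 1.12 (0.827 to 1.51). The interval of the ratio of Nr1d2 lay above that of Nr1d1, 0.508 to 0.783, without overlap. Nr1d1 made up 72.3% of the tags of both genes in Dox+ (67.0% to 77.2%) and 59.6% in Dox- (53.0% to 65.9%). Beside the log2 ratio of Nr1d1, -0.66, the marker medians were -0.65 for smooth muscle, -0.56 for endothelium, -0.42 for adipocytes and -0.08 for stroma. Epithelium (0.42) and leukocytes (0.21) went the other way. The skeletal muscle and oviduct lists each had 1 gene with enough copies, at -1.41 and 0.90. The part of these cells in the value of Nr1d1 was not tested. The call of Nr1d1 rested on counting error alone. With a coefficient of variation of 0.1 between pools assumed in the exact test of edgeR, its adjusted p was 0.052, and with 0.2 assumed it was 0.498.

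**Figure D3:**
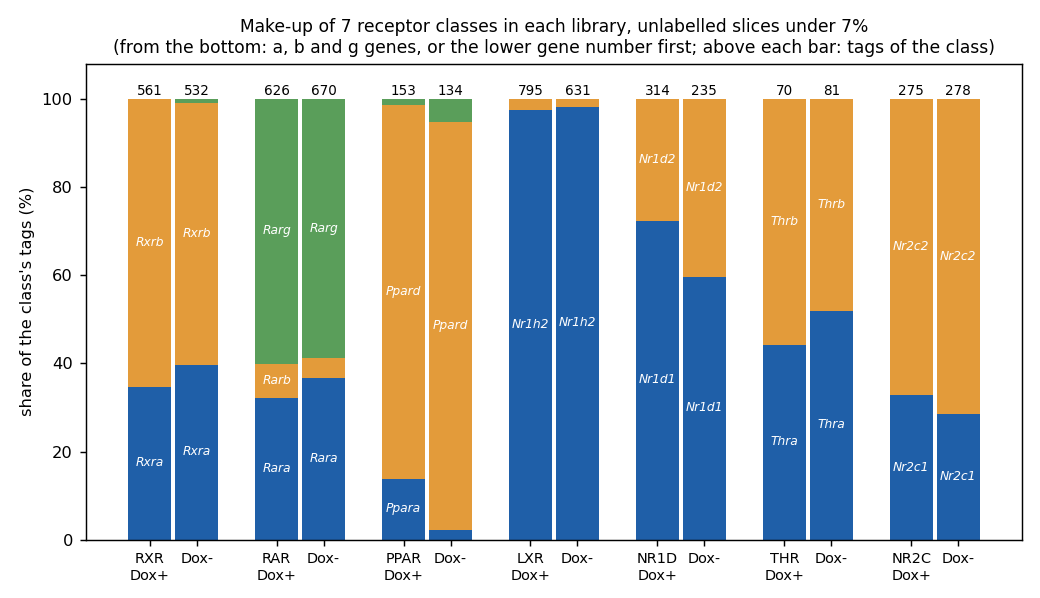
Share of the tags of 7 receptor classes held by each gene, in percent, for the Dox+ and Dox- libraries, with the tags of the class above each bar. The share of Nr1d1 in its class was 72.3% in Dox+ and 59.6% in Dox-, that of Ppara 13.7% and 2.24%, and Nr1h2 held 97.5% and 98.3% of the LXR tags.

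The promoter windows of the REV-ERB genes are shown as those of the called receptor and its paralog, with the same 4 hexamers in capitals. Nr1d1's window lies at chr11:98636692-98636941 and that of Nr1d2 at chr14:19071621-19071870, both on the minus strand of NCBIM37.
Nr1d1: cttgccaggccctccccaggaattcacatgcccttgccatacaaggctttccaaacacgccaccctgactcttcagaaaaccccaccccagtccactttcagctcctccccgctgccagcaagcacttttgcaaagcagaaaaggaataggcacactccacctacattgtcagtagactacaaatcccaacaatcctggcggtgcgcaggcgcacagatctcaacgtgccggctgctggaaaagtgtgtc
Nr1d2: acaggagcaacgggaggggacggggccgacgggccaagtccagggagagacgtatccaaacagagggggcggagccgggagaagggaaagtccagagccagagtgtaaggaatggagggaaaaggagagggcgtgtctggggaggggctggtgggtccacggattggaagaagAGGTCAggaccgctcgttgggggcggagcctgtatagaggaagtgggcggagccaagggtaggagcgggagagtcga
The window of Nr1d1 held 0 of these hexamers and 54.8% G and C, and that of Nr1d2 held 1 hexamer, AGGTCA, and 63.6% G and C. The E-box CACGTG, the site of the clock activators, was in neither window and in 6.02% of all windows. Over all member windows the median GC content was 62.6%, beside 52.4% over all promoter windows.

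Rorb, one of the ROR activators that the REV-ERB proteins oppose, had 13 and 16 copies, a ratio of 1.26 (0.569 to 2.85), whose interval includes 1. Of 15 listed clock genes that these receptors bind or that run beside them, 14 were in the table and 4 had enough copies. Of those 4, 1 was called higher and 0 lower, beside 15.2% and 14.7% of all genes. Bhlhe40, a repressor of the clock and a gene that responds to hypoxia, rose from 190 to 458 copies, 2.47-fold (2.08 to 2.94). Per1 had 204 and 208 copies and Tef 136 and 163, and neither was called. Arntl, the clock activator whose promoter the REV-ERB and ROR proteins share, had 85 and 92 copies, a ratio of 1.11 (0.816 to 1.51). Arntl was chosen here after its values were seen, as were Per2, with 34 and 96 copies, a ratio of 2.89 (1.94 to 4.41), and Npas2, with 19 and 6. The time of day of collection, which moves these genes, is not given in the sources used here.

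Nr1d1 lies in a set of receptor genes that has a counterpart on another chromosome: Thra, Nr1d1 and Rara on chromosome 11, and Thrb, Nr1d2 and Rarb on chromosome 14. The genes of Nr1d1 and Thra overlap tail to tail on opposite strands, over 1075 bases in all and 263 bases of exons. The study searched both sense and antisense tags, but how the deposited copies used strand was not given, so that reads of the overlap may not be told apart. Thra had 31 copies in Dox+ and 42 in Dox-, a ratio of 1.39 (0.852 to 2.28), while Nr1d1 fell. Thrb had 39 copies in both libraries, a ratio of 1.02 (0.640 to 1.64). The thyroid receptors together had 70 and 81 copies, a ratio of 1.19 (0.850 to 1.66). In each set the RAR and the NR1D gene had ratios on opposite sides of 1, but with the interval of Rarb reaching 1.01 and that of Nr1d2 crossing 1, the counts do not settle a direction for the set on chromosome 14.

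**Figure D4:**
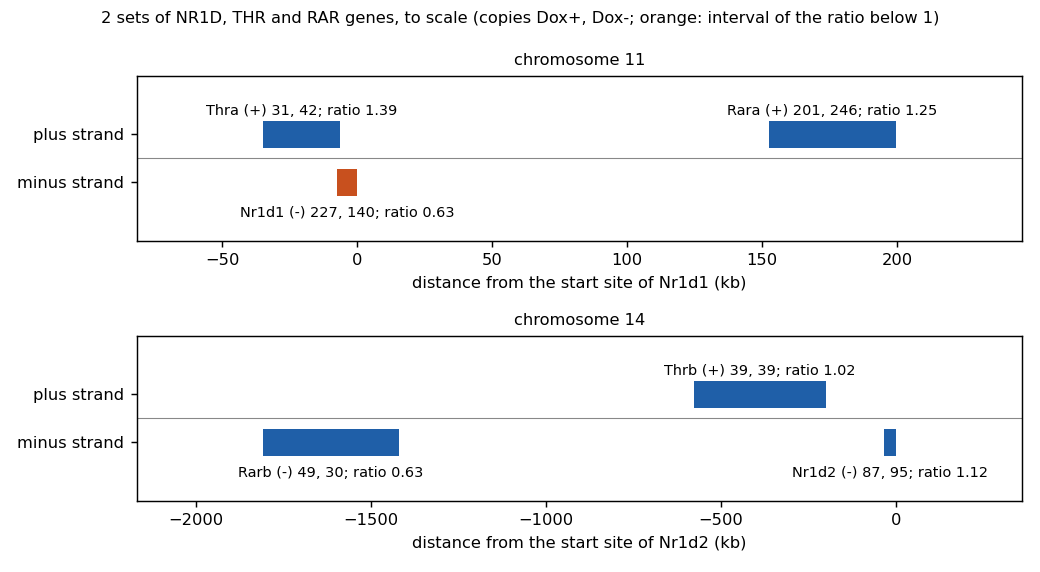
Map to scale of the NR1D, THR and RAR genes on chromosomes 11 and 14, by distance in kb from the start site of the NR1D gene and by strand, with the copies of both libraries and the ratio. Other genes of the regions are not drawn. Nr1d1 is the one gene whose interval of the ratio lay below 1 (227 and 140 copies), and its end overlaps that of Thra.

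The liver X receptors sense oxysterols and raise genes of cholesterol export and fatty acid synthesis. Nr1h2 (LXR beta, Gene ID 22260) had 775 copies in Dox+ and 620 in Dox- (129 and 106 TPM), a ratio of 0.819 (0.736 to 0.912), which left out 1 without a fold change of 1.5. Nr1h3 (LXR alpha) had 20 and 11 copies, a ratio of 0.563 (0.244 to 1.23). Summed, they had 795 copies in Dox+ and 631 in Dox-, a ratio of 0.813 (0.731 to 0.904). Of 12 listed LXR targets, 9 had enough copies, with 3 called higher and 1 lower, beside 15.2% and 14.7% of all genes. Abca1, the cholesterol exporter, rose from 146 to 253 copies, Srebf1, the regulator of lipid synthesis, from 397 to 654, and Lpcat3, a phospholipid-remodeling enzyme, from 409 to 651. Scd1, a fatty acid desaturase, fell from 659 to 342 copies, 1.88-fold (1.65 to 2.15). Apoe with 7452 and 6118 copies and Scd2 with 2866 and 4111 were not called.

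Of the PPAR genes, which sense fatty acids and their derivatives, Ppard had most tags in both libraries, 85.0% of the class in Dox+ and 92.5% in Dox-. Its 130 copies in Dox+ and 124 in Dox- (21.7 and 21.2 TPM) gave a ratio of 0.977 (0.758 to 1.26). Ppara, the receptor best known for raising fatty acid oxidation in liver, had 21 copies in Dox+ and 3 in Dox-, 6.83-fold lower with a wide interval, 2.04 to 35.8. It was under the 200 combined copies, and it was called lower when no filter was set, with an FDR of 0.00079 in the Audic-Claverie test. Pparg, the adipocyte receptor, had 2 and 7 copies, a ratio of 3.58 (0.683 to 35.4). Ppara held 13.7% of the class's tags in Dox+ (8.70% to 20.2%) and 2.24% in Dox- (0.464% to 6.40%).

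Among 20 listed PPAR targets, 14 had enough copies, with a median log2 ratio of -0.19. Of these, 1 was called higher and 3 lower, beside 15.2% and 14.7% of all genes. Cpt2, an enzyme of fatty acid import into mitochondria, fell from 455 to 168 copies, 2.64-fold (2.21 to 3.18). Adipoq, an adipocyte hormone, fell from 157 to 78 copies, 1.97-fold (1.49 to 2.61). Cpt1a, the gatekeeper of that import, rose from 182 to 370 copies, 2.08-fold (1.74 to 2.50). Ucp2 with 1347 and 1477 copies, Acadl with 654 and 515 and Angptl4 with 513 and 495 were not called. Of the 8 listed adipocyte markers, 7 had tags in both libraries, with summed levels of 301 and 221 TPM, a ratio of 0.733. Of the 3 with enough copies, 0 were called higher and 1 lower, beside 15.2% and 14.7% of all genes. The one called lower, Adipoq, is also in the list of PPAR targets. Smooth muscle and endothelial sums were lower too, at ratios of 0.689 and 0.701. Those of epithelium, stroma, leukocytes, oviduct and ovary cells were higher. Skeletal muscle markers, 5 of 8 in the table, summed to 583 and 219 TPM, with Mb at 0 in Dox+. The part of these cells in the result was not tested.

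Among the COUP-TF relatives, Nr2f6 had the most tags of all members and Nr2f1 few. Nr2f6 (EAR2, Gene ID 13864, chromosome 8, 73898022 to 73905859, minus strand), an orphan repressor, had 1157 copies in Dox+ and 1528 in Dox-, 193 and 261 TPM. Its ratio of 1.35 had a narrow interval, 1.25 to 1.46, which left out both 1 and 1.5. Nr2f1 (COUP-TFI, chromosome 13) had 44 and 18 copies, 2.39-fold lower (1.35 to 4.39), and was called lower when no filter was set, with an FDR of 0.0042 in the Audic-Claverie test. The ratios of the 2 relatives lay on opposite sides of 1, with intervals that do not overlap. Nr2f6 overlaps Ocel1 on the opposite strand.

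Without the filter on copies, 4 receptors were called lower, Nr1d1, Nr2f1, Ppara and Nr0b1, and 0 higher, where 14.2% of all genes were called lower and 13.9% higher. The filter left out 19 of the 29 receptors, and 3 of these 4 calls lie among those 19. Nr0b1 (DAX1), an orphan without the zinc fingers that represses steroidogenic genes, had 13 copies in the Dox+ library and no tag in that of Dox-, at least 4.23-fold lower against the floor of 3 copies. Nr0b2 (SHP), the other receptor of this kind, had 3 and 7 copies, a ratio of 2.39 (0.546 to 14.3). Markers of steroidogenic ovary cells were nearly absent in both libraries, as 2 of the 8 listed were in the table and together they had 12 and 15 copies.

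The testicular receptors and the estrogen-related receptors differed by less than counting error. Nr2c2 (TR4) had 185 and 199 copies (30.9 and 34.1 TPM), a ratio of 1.10 (0.897 to 1.35), and Nr2c1 (TR2) had 90 and 79, a ratio of 0.899 (0.656 to 1.23). Esrra, a regulator of mitochondrial oxidation, had 101 and 113 copies (16.9 and 19.3 TPM), a ratio of 1.15 (0.868 to 1.51), and Esrrb had 2 and 0, too few for a fold change. Of 11 listed ERR targets, 10 had enough copies and 0 were called in either direction, beside 29.9% of all genes. Atp5b, a subunit of ATP synthase, had 9807 and 7195 copies, and Cox5b, of cytochrome oxidase, 1669 and 1532. Nr6a1, the germ cell nuclear factor, had 18 and 29 copies, a ratio of 1.65 (0.886 to 3.16).

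The NR4A receptors are immediate-early orphans that respond within minutes to many stimuli. Nr4a1 had 50 copies in Dox+ and 70 in Dox-, a ratio of 1.43 (0.983 to 2.10). Nr4a2 had 7 and 13 copies, a ratio of 1.90 (0.705 to 5.63). Neither interval left out 1, while that of their sum, 57 and 83 copies, did, with a ratio of 1.49 (1.05 to 2.13). It was 1 of 14 class sums, with no adjustment for their number. Such an interval was also found for 66.2% of all genes with enough copies. Of 17 listed immediate-early genes, 9 had enough copies, with 2 called higher and 0 lower, beside 15.2% and 14.7% of all genes. Klf4 rose from 86 to 279 copies, 3.32-fold (2.60 to 4.28), and Junb from 121 to 224, 1.90-fold (1.51 to 2.39). Jund, Jun and Myc, with the most tags of that list, were not called, at 752 and 903, 722 and 698, and 495 and 398 copies.

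Vdr, the vitamin D receptor, had 7 copies in Dox+ and 10 in Dox-, a ratio of 1.46 (0.503 to 4.53). Of 8 listed targets, some of which are also under steroid control in the uterus, 5 were in the table and 3 had enough copies. Among those 3, 1 was called higher and 1 lower, beside 15.2% and 14.7% of all genes. Calb1, the calcium-binding calbindin, fell from 1753 to 184 copies, 9.30-fold (7.99 to 10.9). Spp1, the secreted osteopontin, rose from 361 to 622 copies, 1.76-fold (1.55 to 2.01). Atp2b1, a calcium pump, had 385 and 352 copies. The calcium channel gene Trpv6, chosen after its values were seen, had 5 and 102 copies, a ratio of 20.9 (8.67 to 65.7).

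Several genes that supply and clear the ligands were called. Of 18 listed genes of retinoid synthesis, binding and clearance, 9 had enough copies, with 4 called higher and 1 lower, beside 15.2% and 14.7% of all genes. Rdh10, which makes retinaldehyde from retinol, rose from 63 to 247 copies, 4.02-fold (3.03 to 5.38). Aldh1a2, which makes retinoic acid from it, rose from 620 to 1674 copies, 2.77-fold (2.52 to 3.04). Lrat, which stores retinol as ester, rose from 22 to 279 copies, 13.0-fold (8.41 to 21.1), and the cytosolic binding protein Crabp1 from 23 to 195, 8.68-fold (5.62 to 14.0). Dhrs3, which turns retinaldehyde back to retinol, fell from 477 to 265 copies, 1.76-fold (1.51 to 2.05). Stra6, the retinol uptake receptor, had 801 and 718 copies and was not called. Cyp26b1, which degrades retinoic acid, had 99 and 30 copies and Crabp2 had 6 and 61, both under the filter and both chosen after their values were seen.

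Dio2, the deiodinase that activates thyroid hormone, rose from 457 to 1816 copies, 4.07-fold (3.67 to 4.52). In its list of ligand supply for the other receptors, 7 of 16 genes had enough copies. Of these, 2 were called higher and 3 lower, beside 15.2% and 14.7% of all genes. The genes called lower were Cyp27a1, which makes an oxysterol, from 227 to 67 copies, Ptgis, which makes prostacyclin, from 522 to 193, and Ptgs1, a cyclooxygenase, from 425 to 230. Of 5 listed thyroid receptor targets, 3 had enough copies. Among those 3, 0 were called higher and 1 lower, beside 15.2% and 14.7% of all genes. The one called lower, Thrsp, fell from 502 to 217 copies, 2.26-fold (1.92 to 2.66). Me1 with 228 and 276 copies and Klf9 with 243 and 159 were not called.

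**Figure D5:**
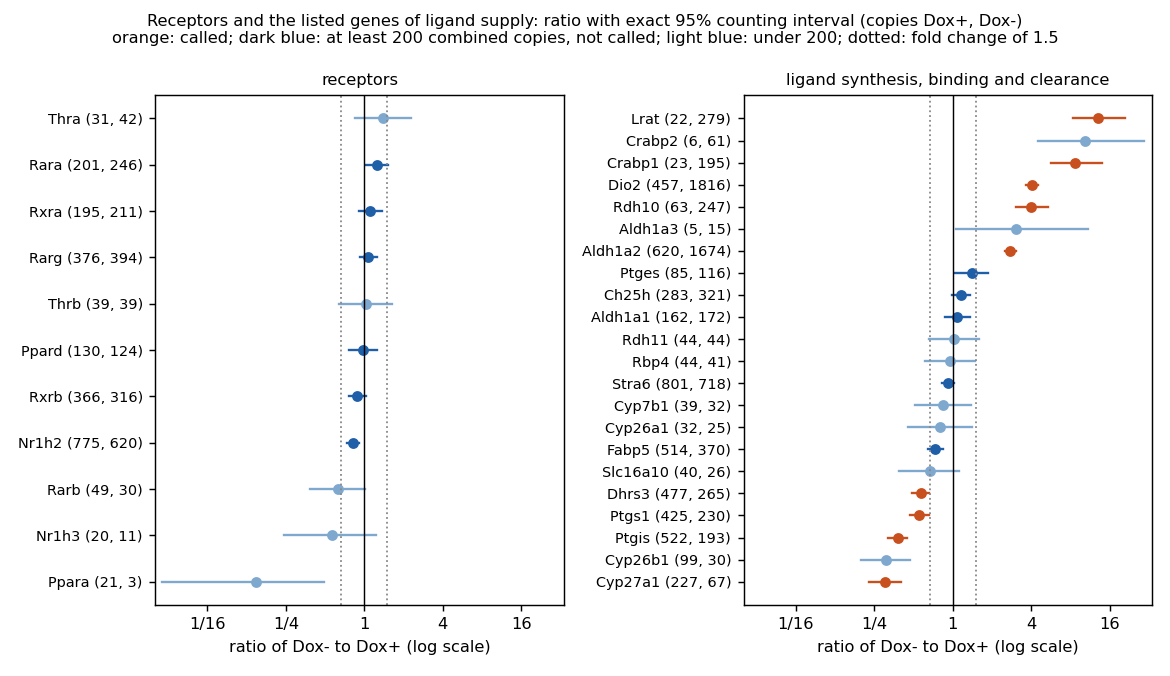
Ratio of Dox- to Dox+ on a log axis with the exact 95% counting interval, for 11 receptors on the left and 22 genes of ligand supply on the right, with copies of both libraries. The receptors drawn are a selection without Nr1d1, the one receptor called. Those with at least 200 combined copies lie within a fold change of 1.5, while Ppara, Nr1h3 and Rarb, with fewer copies, lie below it. Of the called genes of ligand supply drawn, Lrat, Crabp1, Dio2, Rdh10 and Aldh1a2 lie above it and Dhrs3, Ptgs1, Ptgis and Cyp27a1 below.

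Of 10 listed RAR targets, 4 had enough copies, with a median log2 ratio of 0.10. Among these, 0 were called higher and 1 lower, beside 15.2% and 14.7% of all genes. The one called lower, Dhrs3, is also in the list of ligand supply. Tgm2, a transglutaminase, had 2245 and 3250 copies, a ratio of 1.48 (1.40 to 1.57), just under the fold change of 1.5.

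The cofactors with enough copies were mostly within a fold change of 1.5, as were 70.1% of all genes with enough copies. Of 15 listed coactivators, 9 had enough copies, with 1 called higher and 1 lower, beside 15.2% and 14.7% of all genes. Ncoa7 rose from 178 to 389 copies, 2.24-fold (1.87 to 2.69), and Ncoa4, better known for its part in ferritin breakdown, fell from 438 to 258, 1.66-fold (1.42 to 1.94). Carm1 had 833 and 815 copies, Ep300 818 and 634 and Med1 420 and 385, and none of these was called. Of 10 listed corepressors, 6 had enough copies, with 0 called higher and 1 lower, beside the same shares of all genes. The one called lower, Gps2, fell from 214 to 121 copies. Ncor1 had 424 and 538 copies and Hdac3 had 398 and 268, and neither was called.

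Levels were compared between receptors per kb of the longest protein-coding transcript, with TPM itself carrying no length correction. Whether long mRNAs gave more tags was not tested, and if they did not, the division understates them and copies are the scale to compare. On this scale Nr2f6 was highest in both libraries, with 87.1 TPM per kb in Dox+ and 118 TPM per kb in Dox-. Nr1h2 followed with 64.8 and 53.1 TPM per kb, then Rxrb with 23.3 and 20.6 and Rarg with 21.3 and 22.8, whose 95% Poisson intervals overlap. Next in Dox+ came Nr1d1, at 13.9 TPM per kb and above Rara at 9.92, and below Rara in Dox-, at 8.80 against 12.4. Per kb, the intervals of Nr1d1 and Rara were apart in both libraries, but these intervals do not cover the choice to divide by length. This order depends on the division by length, since in copies Nr1d1 and Rara were close in Dox+, at 227 and 201. Esrra, Ppard and Rxra followed between 6.59 and 8.62 TPM per kb, and their order was not settled by the counts. Of the 9 neighboring pairs among the 10 highest receptors, 5 had intervals apart in Dox+ and 4 in Dox-.

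Markers of several cell types differed in sum between the libraries. The 10 epithelial markers had summed levels of 1167 and 1541 TPM, a ratio of 1.32. Of these, 4 were called higher and 2 lower, beside 15.2% and 14.7% of all genes with enough copies. The same shares stand beside the calls of the other lists here. The 8 smooth muscle markers summed to 6531 and 4501 TPM, a ratio of 0.689, with 0 called higher and 4 lower. The 9 endothelial markers summed to 242 and 170 TPM, a ratio of 0.701, and of the 4 with enough copies 0 were called higher and 2 lower, Cdh5 and Tie1. The 9 stromal markers had a summed ratio of 1.14, in which Col1a1 had more tags than any other (23017 and 33696 copies), but a median log2 ratio of -0.08, with 1 called higher and 3 lower. The 10 leukocyte markers had a summed ratio of 1.33, with 0 called of 3. The oviduct sum, 1.69 for 3 of 4 markers, was mostly Pax8 (114 and 207 copies). The other markers went opposite ways, Ovgp1 with 25 and 2 copies and Foxj1 with 3 and 25. The part of the cell make-up in the receptors' values was not tested.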

How the data were processed

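Total RNA (6 µg per pool) of 3 uteri per condition was sequenced as 1 Dox+ and 1 Dox- library. Per the methods, the authors removed adaptor-only, low quality and single-copy tags, searched the clean tags against reference mRNAs of mm9 (also named in the submitters' processing notes) and annotated those with 1 gene. The counts deposited for each gene are its copies, not scaled. TPM, from the authors too, are copies scaled to the clean tags of the library, with no length correction. The aligner is not given in the sources used here. The sample descriptions name mRNA fragmentation while the methods describe tag profiling, which was not resolved. The table's columns of fold changes, P-values and FDR of the authors were not used.

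Clean tags per library were recovered from the counts and the TPM, and ratios were taken per clean tag. Genes with at least 200 combined copies were called at an Audic-Claverie FDR below 0.05 (Benjamini-Hochberg over all 14678 genes) and a fold change of at least 1.5. The test and filter follow the study, whose methods set the looser cutoff of an absolute log2 ratio above 0.5, run here as an alternative. Intervals are exact Clopper-Pearson intervals at 95%. A library with 0 copies was set to 3 for a bound; counts of 1 to 3 were kept as counted, where the plan had also set them to 3. The members, the 12 pathway lists, the 9 marker lists and all tests were chosen with earlier results of these data known. Named from each list are the 3 genes with the most copies and up to 3 called genes a direction, by fold change, and others are marked as chosen after their values were seen. One receptor and some listed genes are not reported here by name, while the counts over the members and lists include them. All 29 members matched a GENCODE gene of NCBIM37, the assembly of mm9. Promoter windows came from the RefSeq table (GRCm38.p6), and all 42 were placed on NCBIM37 by an exact match. The alternatives were other filters, scalings, tests, thresholds and a pseudocount of 1. The scripts were tested on simulated counts. Python 3.11.15, numpy 2.4.6, scipy 1.17.1, pandas 2.3.3, matplotlib 3.10.9, R 4.3.3 and edgeR 4.0.16 were used.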

Additional observations from a re-analysis of the deposited data

How the results depend on the processing

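The count of 0 receptors called higher in Dox- was the same under all 13 alternatives, and so was the side of the threshold of the 9 uncalled receptors with at least 200 combined copies. The count of 1 called lower became 4 without a filter on copies, where fewer tags suffice, and 0 at a fold change of at least 2 and with an assumed coefficient of variation of 0.1, 0.2 or 0.4 in the exact test of edgeR. The FDR or adjusted p of Nr1d1 ran from 2.9e-05 with median-ratio size factors to 1 with a coefficient of variation of 0.4 in edgeR, and its log2 ratio, -0.66, from -0.70 to -0.62 over the scalings. Without the filter Ppara (-2.77), Nr2f1 (-1.25) and Nr0b1 (-2.08, at the floor) were also called. With the counted tags as library sizes, the log2 ratio of Ppard turned from -0.03 to 0.0049, both within counting error. Over all genes, 994 were called higher and 961 lower, which became 1231 and 1168 at an absolute log2 ratio above 0.5, 2044 and 2077 without a filter, 302 and 368 at a fold change of 2, 147 and 174 with a coefficient of variation of 0.2, and 16 and 17 with 0.4. No paired analysis was possible because each condition has 1 library, and for the same reason no library could be left out. Receptors with few copies are limited by depth: a library without a tag still allows up to 3 copies, 0.501 TPM in Dox+ and 0.513 TPM in Dox-.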
